A study of Mus musculus with 11 samples.

Results

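Metallothioneins are small cysteine-rich proteins that hold zinc and copper, and the mouse genes measured here were *Mt1*, *Mt2* and *Mt3*. They were taken by symbol, as 3 of the 32285 features counted in single-cell RNA sequencing libraries of mouse brain. The UMIs of each gene, a UMI being the tag that marks 1 captured transcript, were read per library and per cell type and compared over the 4 groups of the study. The sham + WT group held 3 mice (replicates 1, 2 and 3), the MCAO/R + WT group 2 mice (replicates 1 and 2), and the sham + *Lrg1*-/- and MCAO/R + *Lrg1*-/- groups 3 mice each (replicates 1, 2 and 5), with 1 library per mouse. MCAO/R is occlusion of the middle cerebral artery with a filament followed by reperfusion, and the labels do not give the reperfusion time. The *Lrg1*-/- mice lack *Lrg1*, a secreted leucine-rich glycoprotein, in the whole body, and according to the study's methods they and the WT mice came from different suppliers, the WT mice were younger, and a substrain is given for the *Lrg1*-/- mice only. Genotype, source, age and strain background thus cannot be told apart. Cells of the right brain were freed with enzymes, and red blood cells were lysed.

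In mammals *Mt1* and *Mt2* are transcribed in most organs and are induced by zinc, copper, glucocorticoids, cytokines and oxidative stress. The zinc sensor Mtf1 binds the metal response elements of their promoters. In brain both genes are known for high transcription in astrocytes and ependymal cells and for a rise after injury. *Mt3*, first described as growth inhibitory factor, is known as the brain form, is carried by astrocytes and some neurons, and responds little to metals.

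The 3 genes lie in a row on the plus strand of chromosome 8. In the GENCODE M21 annotation of GRCm38, *Mt3* (ENSMUSG00000031760) spans chr8:94152607-94154146, *Mt2* (ENSMUSG00000031762) chr8:94172664-94173568 and *Mt1* (ENSMUSG00000031765) chr8:94179082-94180327. No other annotated gene lies within the 18517 bases between *Mt3* and *Mt2* or the 5513 bases between *Mt2* and *Mt1*. Each main transcript has 3 exons, with a length of 536 bases for *Mt3*, 511 for *Mt2* and 549 for *Mt1*. The longest stretch shared by transcripts of any pair was 27 bases (*Mt1* and *Mt3*), and no stretch of 50 bases was shared with any other gene. An antisense gene, *Gm45774*, overlaps *Mt2*, and it held 6 to 94 UMIs per library against 2441 to 73613 for *Mt2*. The 250 bases before each RefSeq start (GRCm38.p6) are shown because metal response elements are known sites of metal induction of *Mt1* and *Mt2*, and their part in the levels below was not tested. Capitals mark the cores of metal response elements, searched as TGCACNC and TGCGCNC on both strands.
*Mt3*: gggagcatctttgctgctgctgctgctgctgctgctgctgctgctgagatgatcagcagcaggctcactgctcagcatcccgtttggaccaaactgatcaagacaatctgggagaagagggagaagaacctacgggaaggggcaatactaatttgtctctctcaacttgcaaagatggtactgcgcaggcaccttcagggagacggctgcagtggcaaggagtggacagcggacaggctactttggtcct
*Mt2*: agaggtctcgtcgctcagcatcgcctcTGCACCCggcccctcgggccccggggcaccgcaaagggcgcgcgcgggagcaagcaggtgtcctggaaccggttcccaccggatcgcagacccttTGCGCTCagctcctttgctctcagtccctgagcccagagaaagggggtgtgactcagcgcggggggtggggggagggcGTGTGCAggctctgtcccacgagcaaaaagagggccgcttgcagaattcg
*Mt1*: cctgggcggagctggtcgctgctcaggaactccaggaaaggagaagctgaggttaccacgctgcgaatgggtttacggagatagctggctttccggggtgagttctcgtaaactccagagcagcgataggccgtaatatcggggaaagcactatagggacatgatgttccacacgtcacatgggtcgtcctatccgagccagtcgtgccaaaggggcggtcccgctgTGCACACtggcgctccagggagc
The windows are chr8:94152357-94152606 for *Mt3*, chr8:94172368-94172617 for *Mt2* and chr8:94178839-94179088 for *Mt1*, all on the plus strand. The core was found 3 times in the *Mt2* window, starting 223, 128 and 50 bases before the start, and 1 time in the *Mt1* window, starting 23 bases before it. The *Mt3* window held none of these letters. In a window of 300 bases that runs on past the start, the cores numbered 1 for *Mt3*, 4 for *Mt2* and 3 for *Mt1*. Of 32851 RefSeq promoter windows of the same length, 21.4% held at least 1 core and 1.26% held 3 or more. These matches describe letters and not binding. GENCODE gives starts other than the RefSeq ones. Transcripts of *Mt1* begin 122 and 152 bases further on, those of *Mt2* 46 and 242 bases and others of *Mt3* 139 bases, and the *Mt1* window ends 7 bases inside the first exon that GENCODE draws.

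Of 155804 barcodes, 132437 passed the limits on genes, UMIs and mitochondrial content, and 124491 remained after doublets were removed. The libraries held 37159497 to 171813031 UMIs, with a median of 3190 to 11504 UMIs per retained cell. Clusters were named from marker genes, which left 27154 cells in unnamed clusters, 14991 of them in MCAO/R + *Lrg1*-/- replicate 5. *Lrg1* itself was at 1.6, 5.8 and 2.2 CPM, UMIs of a gene scaled to a common library total, in the sham + WT libraries and at 134 and 104 in the MCAO/R + WT libraries. The *Lrg1*-/- libraries held 0 UMIs of it, except for 1 UMI in MCAO/R + *Lrg1*-/- replicate 5. The genotypes differed in RNA of other cells. In microglia the summed choroid plexus transcripts *Ttr*, *Kcnj13*, *Folr1*, *Clic6*, *Sostdc1* and *Kl* were at 101 to 511 CPM over the WT libraries and at 2322 to 3606 over the *Lrg1*-/- libraries. Haemoglobin transcripts in microglia were at 15 to 20 against 7764 to 16777. The part of RNA from other cells in the levels below was not tested in any cell type. In astrocytes the summed astrocyte transcripts *Slc1a2*, *Slc1a3*, *Aqp4*, *Aldoc*, *Gja1* and *Cldn10* were at 14085 to 16483 over the WT libraries and at 3711 to 7620 over the *Lrg1*-/- libraries. Any pair of libraries shared 0.154% to 1.15% of the smaller library's barcodes. Levels below are CPM of a cell type's summed counts, scaled by TMM, a trimmed-mean scaling between libraries. Sums over a list of transcripts, here and below, are CPM of plain library totals. Each fold change is a log2 difference from edgeR's quasi-likelihood test across all genes of the cell type. Its SE is the absolute difference divided by the square root of that test's F statistic. A gene was called when its Benjamini-Hochberg adjusted p was below 0.05 and its natural-log fold change was beyond 0.25, which is 0.36 on the log2 scale. All 3 genes passed the filter on low counts in each of the 16 cell types fitted. How many of all genes had libraries that did not overlap between groups was not counted. Statements on overlap below thus describe the values and are not a test.

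*Mt1* was highest in the sham + WT group in the cells that line the ventricles and in astrocytes. Ciliated ependymal cells held an *Mt1* of 3081, 3139 and 3056 CPM in the 3 libraries, and astrocytes, the glia that support neurons and vessels, held 1845, 2476 and 2577. The ranges of these first and second ranks did not overlap. Vascular smooth muscle cells followed with 485 to 922, border-associated macrophages with 539 to 622, choroid plexus epithelial cells with 324 to 390, endothelial cells with 277 to 366 and oligodendrocytes with 248 to 315. In the rest of the order, ranges of neighbours overlapped, down to microglia with 134 to 182, T cells with 89.6 to 131 and B cells with 43.1 to 120.0. *Mt2* had the same first and second ranks, with 490 to 577 CPM in ciliated ependymal cells and 360 to 415 in astrocytes. The next level was 43.7 to 79.4 in neuroblasts, which overlapped with 47.8 to 61.8 in endothelial cells and 28.0 to 72.8 in vascular smooth muscle cells. Microglia had the lowest mean of the 15 cell types, with 5.6 to 6.8, and B cells overlapped them, with 17.1, 4.31 and 3.98. *Mt3* was split more sharply between cell types. It stood at 2458 to 2626 in ciliated ependymal cells, at 1171 to 1322 in astrocytes and at 865 to 1230 in choroid plexus epithelial cells, the secretory cells of the ventricles. Each of the 12 other cell types of the sham + WT group had a mean of at most 31.5, with 9.99 to 11.3 in microglia and 9.4 to 9.9 in endothelial cells.

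**Figure D1:**
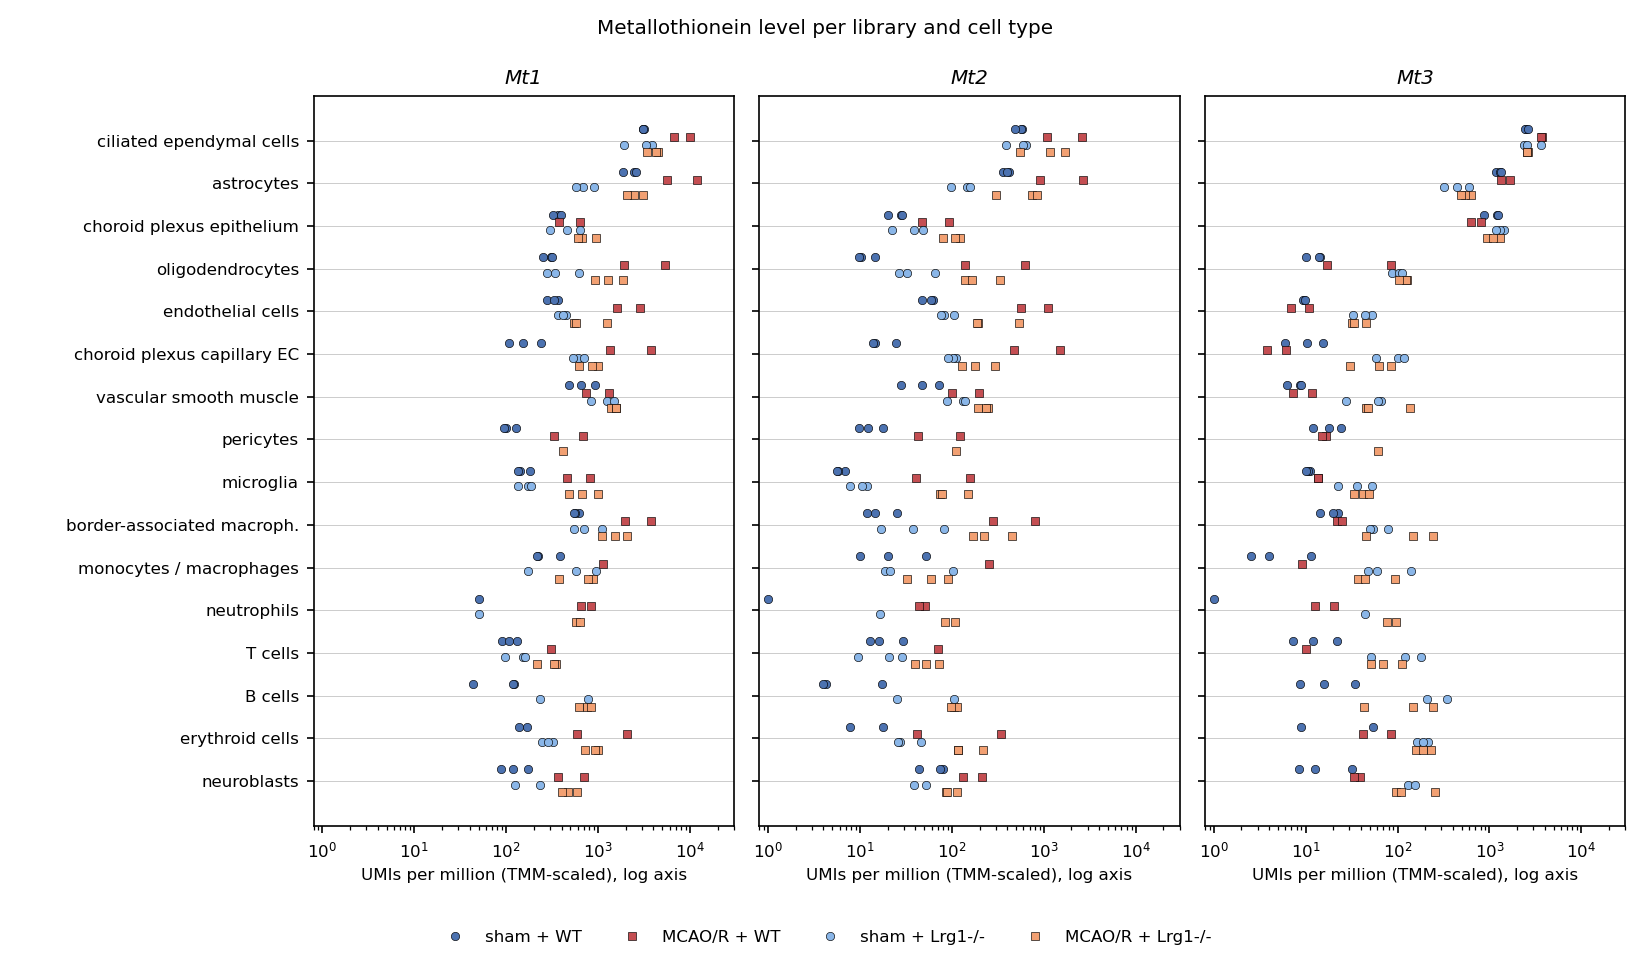
Level of *Mt1*, *Mt2* and *Mt3* in CPM on a log axis (x) in each of 16 cell types (y), with 1 point per library with at least 20 cells of the type, coloured by group and drawn at 1 where no UMI was found. *Mt1* and *Mt2* lay further right after MCAO/R than after sham surgery in most cell types of the WT mice, and *Mt3* was high in ciliated ependymal cells, astrocytes and choroid plexus epithelial cells.

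The first comparison asks what MCAO/R did to these genes in WT mice. *Mt1* and *Mt2* had positive fold changes in each of the 12 cell types tested, with medians of 2.15 for *Mt1* and 3.23 for *Mt2*. *Mt1* was called higher in 9 of the 12 types and *Mt2* in 8, while between 0% and 11.8% of all genes tested in a type were called higher (median 3.465%). *Mt3* was called in 1 type, oligodendrocytes. The share of all genes called higher was 1.22% in astrocytes, 11.8% in oligodendrocytes, 0.356% in ciliated ependymal cells, 10.2% in endothelial cells, 4.58% in pericytes, 2.62% in choroid plexus capillary endothelial cells, 6.6% in smooth muscle cells, 11.7% in microglia, 4.31% in border-associated macrophages, 0.19% in erythroid cells and 4.14% in all retained cells. Calls are thus read against a background that was highest in oligodendrocytes and microglia. In all retained cells together, *Mt1* rose from 369, 335 and 335 CPM in the sham + WT libraries to 2415 and 1292 in the MCAO/R + WT libraries (log2 difference 2.42 ± 0.32, SE, adjusted p = 0.00174). *Mt2* rose from 40.0 to 49.1 to 586 and 208 (3.16 ± 0.43, adjusted p = 0.00212). *Mt3* stood at 110 to 134 and at 132 and 121 (0.08 ± 0.34, adjusted p = 0.919).

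Among neural cells, astrocytes went from the *Mt1* levels given above to 11916 in MCAO/R + WT replicate 1 and 5592 in replicate 2 (1.93 ± 0.35, adjusted p = 0.0175). *Mt2* in astrocytes went from 360, 415 and 396 to 2694 and 898 (2.20 ± 0.45, adjusted p = 0.0294). The groups did not overlap, but replicate 1 was far above replicate 2. Without MCAO/R + WT replicate 1 the differences were 1.29 for *Mt1* (adjusted p = 0.207) and 1.21 for *Mt2* (adjusted p = 0.404). Wherever a refit without 1 library leaves a group with a single library, here and below, its p takes the spread from the other groups and assumes that the lone library varies like them. Leaving out any 1 sham + WT library also ended both calls, with differences of 1.79 to 2.01 for *Mt1* and 2.14 to 2.24 for *Mt2*. Oligodendrocytes, the myelin-forming glia, showed a larger change. Their *Mt1* was at 303, 315 and 248 after sham surgery and at 5367 and 1921 after MCAO/R (3.66 ± 0.42, adjusted p = 3.59e-05), and their *Mt2* was at 14.6, 10.4 and 9.8 and at 627 and 139 (5.04 ± 0.56, adjusted p = 3.08e-05). *Mt3* in oligodendrocytes was at 14.4, 13.97 and 10.1 and at 85.3 and 17.0 (1.96 ± 0.44, adjusted p = 0.0056). Without MCAO/R + WT replicate 1 the *Mt3* difference was 0.37 (adjusted p = 0.26), and with cells thinned to 1000 UMIs it was 0.97 (adjusted p = 0.188). In ciliated ependymal cells *Mt1* reached 9902 and 6604 (1.42 ± 0.28, adjusted p = 0.0386), a call that was lost without either MCAO/R + WT library (1.10, adjusted p = 0.634, without replicate 1 and 1.69, adjusted p = 0.0565, without replicate 2), without any 1 sham + WT library (1.40 to 1.43), without sham + *Lrg1*-/- replicate 2 (1.42, adjusted p = 0.0511) and with doublets kept (1.41, adjusted p = 0.0516). *Mt3* in the same cells was at 3724 and 3597, above all 3 sham libraries but not called (0.54 ± 0.21, adjusted p = 0.349).

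Vascular cells formed the second group with a large change. In endothelial cells, which line the vessels, *Mt1* went from 366, 277 and 327 to 2859 and 1612 (2.79 ± 0.32, adjusted p = 5.73e-05), and *Mt2* from 61.8, 47.8 and 59.7 to 1109 and 559 (3.89 ± 0.41, adjusted p = 2.76e-05). The largest changes were in choroid plexus capillary endothelial cells, where *Mt1* went from 237, 107 and 152 to 3784 and 1340 (3.95 ± 0.40, adjusted p = 8.59e-05) and *Mt2* from 24.5, 14.4 and 13.8 to 1481 and 472 (5.78 ± 0.48, adjusted p = 2.43e-05). These came from 49 to 70 cells per library. Their cluster, 41, held 8 markers of this type and also 8 of pericytes. The mean log2 ratios of these markers to all other cells were 2.80 and 1.90. The part of pericyte RNA in these levels was not tested. Pericytes, the contractile cells of capillaries, had an *Mt1* of 94.8 to 128 and then of 692 and 334 (2.24 ± 0.22, adjusted p = 5.24e-07). In vascular smooth muscle cells *Mt2* was called (1.61 ± 0.32, adjusted p = 0.00421, and 1.05, adjusted p = 0.102, without MCAO/R + WT replicate 1) and *Mt1* was not (0.58 ± 0.27, adjusted p = 0.188), and their *Mt1* libraries overlapped, with 485 to 922 against 1324 and 731.

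Among immune cells, microglia, the resident phagocytes of brain, had an *Mt1* of 182, 140 and 134 after sham surgery and of 814 and 457 after MCAO/R (2.06 ± 0.28, adjusted p = 0.00021). Their *Mt2* went from 6.8, 5.8 and 5.6 to 157 and 40.3 (4.03 ± 0.45, adjusted p = 4.68e-05). Border-associated macrophages, which sit at the meninges, choroid plexus and vessels, went from 622, 563 and 539 to 3731 and 1960 for *Mt1* (2.31 ± 0.30, adjusted p = 0.000149) and from 24.998, 11.9 and 14.5 to 797 and 281 for *Mt2* (4.97 ± 0.52, adjusted p = 2.11e-05). *Mt3* in microglia was at 9.99 to 11.3 and at 13.8 in both MCAO/R + WT libraries, and was not called (0.37 ± 0.24, adjusted p = 0.315). Cells that were not called for *Mt1* or *Mt2* included the choroid plexus epithelium, with an *Mt1* of 324 to 390 against 635 and 374 (0.50 ± 0.30, adjusted p = 0.453). Neuroblasts were not called for either gene in the WT mice either, and none of their libraries overlapped (*Mt1* 2.05 ± 0.32, adjusted p = 0.069). Over all genes in neuroblasts, 0% were called higher.

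**Figure D2:**
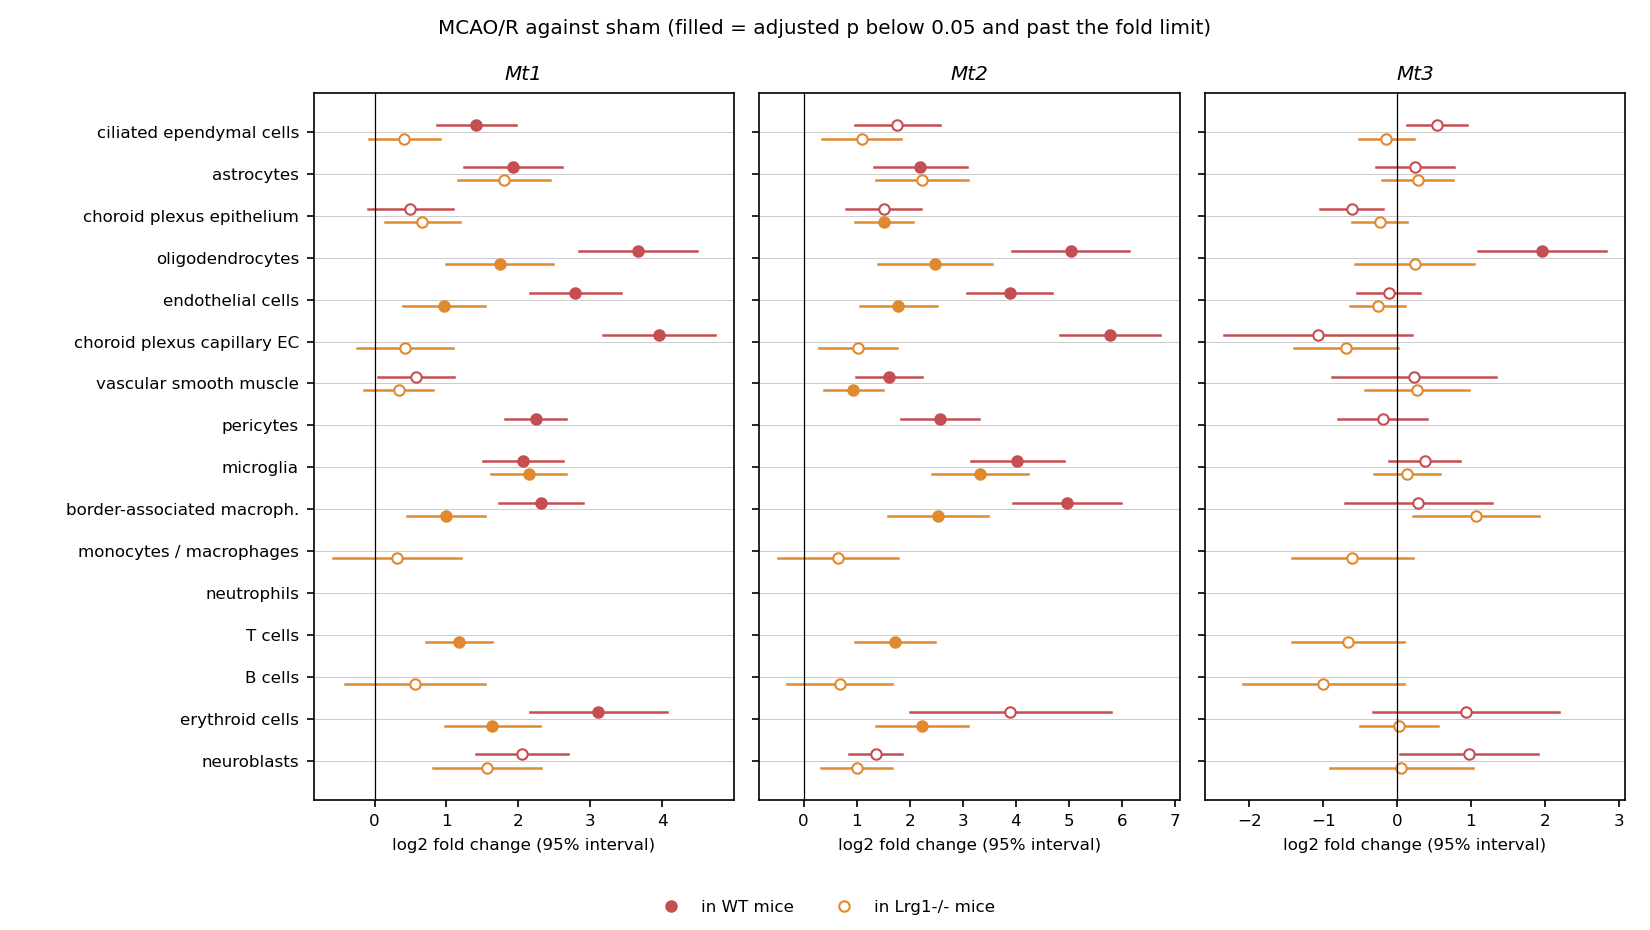
Log2 fold change of *Mt1*, *Mt2* and *Mt3* between MCAO/R and sham (x, with its 95% interval) in each cell type (y), with WT mice in red and *Lrg1*-/- mice in orange and filled points for called genes. The WT values for *Mt1* ran from 0.50 to 3.95 and for *Mt2* from 1.36 to 5.78, and those for *Mt3* from -1.07 to 1.96.

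The named types hold several clusters, and sham and MCAO/R cells filled different ones, so the levels were also read within single clusters, a reading chosen after the data were seen and given without a test. In endothelial cells, MCAO/R cells were mostly in clusters 5 and 16 and sham cells mostly in clusters 8, 18 and 30. In cluster 5, *Mt1* was at 770, 388 and 380 CPM of plain totals in the sham + WT libraries, from 28 to 34 cells each, and at 4592 and 2862 in the MCAO/R + WT libraries. In cluster 8, it was at 449, 392 and 484 and at 391 and 636, the last 2 values resting on 40 and 80 cells. The groups were thus apart within cluster 5 and overlapped within cluster 8. In microglia of cluster 2, which held most sham + WT microglia of replicates 2 and 3, *Mt1* was at 108, 89.5 and 98.1 after sham surgery and at 304 and 295 after MCAO/R, from 60 and 77 cells. In microglia of cluster 4, it was at 1092 and 674 after MCAO/R, while only 7 or 8 cells per sham + WT library fell there. Cluster 4 was led by *Lpl*, *Spp1* and *Msr1* and held 3 of the 10 microglial markers. In oligodendrocytes of cluster 21, which held most sham cells of replicates 2 and 3, *Mt1* was at 272, 292 and 226 and at 989 and 906. In oligodendrocytes of cluster 7 it was at 312, 329 and 275 after sham surgery, from 299, 30 and 12 cells, and at 20808 and 5891 after MCAO/R. That cluster had a median of 10.5% mitochondrial UMIs and of 2689 UMIs per cell, and the part of cell quality in these values was not tested. Both astrocyte clusters, 34 and 36, showed higher values after MCAO/R, with 17099 and 6209 against 1503 to 2631 in cluster 34 and 6748 and 5721 against 2033 to 2694 in cluster 36.

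The second comparison asks the same of *Lrg1*-/- mice. Again *Mt1* and *Mt2* had positive fold changes in all 14 cell types tested, with medians of 0.98 and 1.62. *Mt1* was called higher in 6 types and *Mt2* in 8, against a share of 0.0531% to 21.5% of all genes called higher in a type (median 3.27%). That share was 21.5% in microglia, 12.2% in endothelial cells, 6.21% in oligodendrocytes, 5.66% in border-associated macrophages, 6.84% in smooth muscle cells, 1% in choroid plexus epithelial cells, 3.44% in erythroid cells, 0.729% in T cells and 7.1% in all retained cells. *Mt3* was called by edgeR in 0 of 14 types, with 1 at an unadjusted p below 0.05 and 0 by DESeq2. In microglia *Mt1* went from 133, 171 and 185 in the sham + *Lrg1*-/- libraries to 485, 989 and 672 in the MCAO/R + *Lrg1*-/- libraries (2.14 ± 0.27, adjusted p = 8.95e-05). *Mt2* in microglia went from 11.8, 7.9 and 10.4 to 74.2, 150 and 77.6 (3.33 ± 0.46, adjusted p = 0.000159). In endothelial cells *Mt1* went from 369, 445 and 410 to 545, 1261 and 576 (0.96 ± 0.29, adjusted p = 0.0277). Replicate 2 stood far above the other MCAO/R libraries there, and without it the difference was 0.46 (adjusted p = 0.157). The endothelial *Mt1* call was also lost without sham + *Lrg1*-/- replicate 1 (0.86), 2 (1.03) or 5 (0.98). Endothelial *Mt2* went from 82.0, 106 and 76.7 to 191, 531 and 190 (1.79 ± 0.37, adjusted p = 0.00388), and this call held when any 1 library was left out.

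Oligodendrocytes of the *Lrg1*-/- mice had an *Mt1* of 278, 341 and 621 and then of 917, 1871 and 1293 (1.74 ± 0.38, adjusted p = 0.00948), and the groups did not overlap. Without sham + *Lrg1*-/- replicate 1 or 2 the difference was 1.51 (adjusted p = 0.0558) or 1.62 (adjusted p = 0.0507). Their *Mt2* was at 26.4, 32.9 and 65.9 and then at 139, 334 and 167 (2.48 ± 0.55, adjusted p = 0.01001), a call that was also lost without sham + *Lrg1*-/- replicate 1 (2.17) or 2 (2.38). Cluster 7 held 128 of 489, 36 of 183 and 29 of 124 of these cells after sham surgery. After MCAO/R it held 86 of 252, 797 of 1203 and 2229 of 3388. Their median mitochondrial share was 6.53%, 5.92% and 5.84% and then 7.69%, 9.55% and 7.76%. The part of clusters and cell quality in these changes was not tested. The choroid plexus epithelium was called for *Mt2*, with 22.1, 38.7 and 48.6 and then 122, 108 and 79.4 (1.52 ± 0.28, adjusted p = 0.0123), and not without sham + *Lrg1*-/- replicate 2 (1.57, adjusted p = 0.0682). Smooth muscle cells had an *Mt2* of 88.7, 133 and 138 and then of 191, 244 and 233 (0.94 ± 0.29, adjusted p = 0.0436), a call lost in the fits without either MCAO/R + *Lrg1*-/- replicate 2 (0.85) or 5 (0.93), without any 1 sham + *Lrg1*-/- library (0.74, 1.04 and 1.04) or sham + WT replicate 2 (0.91), with DESeq2 (0.90), with single-cell markers (0.68) and with doublets kept (0.97). Astrocytes had an *Mt1* of 680, 581 and 910 and then of 2464, 3043 and 2064 (1.80 ± 0.33, adjusted p = 0.0583), and an *Mt2* of 146, 155 and 98.7 and then of 735, 847 and 303 (2.23 ± 0.44, adjusted p = 0.0583). No library overlapped in either, and neither passed the threshold. Astrocytes of these mice were few, with 69 to 195 per library against 223 to 714 in the WT libraries, and 0.104% of their genes were called higher. In the 2 astrocyte clusters read apart, *Mt1* was at 557 to 731 and 2091 to 3332 in cluster 34 and at 467 to 1114 and 790 to 1864 in cluster 36, where only 12 to 34 cells per library remained and the groups overlapped. Border-associated macrophages were called for *Mt1* (0.99 ± 0.27, adjusted p = 0.0292) and *Mt2* (2.54 ± 0.48, adjusted p = 0.00427), T cells for *Mt1* (1.18 ± 0.23, adjusted p = 0.0264) and *Mt2* (1.72 ± 0.39, adjusted p = 0.0445), and erythroid cells for *Mt1* (1.64 ± 0.34, adjusted p = 0.00706) and *Mt2* (2.24 ± 0.44, adjusted p = 0.00546). The *Mt1* call of the macrophages was lost without MCAO/R + *Lrg1*-/- replicate 2 (0.74) or 5 (1.01) or sham + *Lrg1*-/- replicate 1 (0.92) or 5 (0.80). Both erythroid calls were lost without sham + *Lrg1*-/- replicate 1 (1.53 for *Mt1* and 2.11 for *Mt2*) or 2 (1.74 and 2.08), with plain library totals (1.57 and 2.12) and with types named from the markers of each single cell (1.13 and 1.81). The T cell *Mt1* call was lost without MCAO/R + *Lrg1*-/- replicate 2 (1.07) or 5 (1.10) or any 1 sham + *Lrg1*-/- library (0.96, 1.28 and 1.31). The T cell *Mt2* call was lost without MCAO/R + *Lrg1*-/- replicate 2 (1.42) or 5 (1.77), sham + *Lrg1*-/- replicate 1 (1.24) or 5 (1.84), or any 1 sham + WT library (1.72 to 1.73), and with DESeq2 (1.61, adjusted p = 0.0519). With doublets kept both T cell calls were lost (1.13 and 1.93). Over the 3 genes, 15 calls were made when all retained cells were counted as a further type, and 5 or 6 were left without sham + *Lrg1*-/- replicate 1 or 2.

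Whether the response to MCAO/R differed between genotypes was tested as an interaction, the log2 difference in *Lrg1*-/- mice minus that in WT mice. Of 11 cell types with 2 libraries in all groups, *Mt1* was called in 2 and *Mt2* in 1, all smaller in *Lrg1*-/- mice, while between 0% and 4.04% of all genes were called lower (median 0.168%), with 0.372% in choroid plexus capillary endothelial cells and 1.39% in endothelial cells. In choroid plexus capillary endothelial cells the interaction was -3.52 ± 0.51 for *Mt1* (adjusted p = 0.00746) and -4.76 ± 0.61 for *Mt2* (adjusted p = 0.00448). The *Mt1* call was lost when at least 50 cells per library were asked for (-3.44, adjusted p = 0.0527) and the *Mt2* call when cells were thinned to 1000 UMIs (-3.18, adjusted p = 0.0802), and with types named from the markers of each single cell the interaction could not be fitted in these cells. Here the sham levels of the genotypes also differed. *Mt1* was at 537 to 700 in the sham + *Lrg1*-/- libraries against 107 to 237 in the sham + WT libraries, and it was at 986, 860 and 619 in the MCAO/R + *Lrg1*-/- libraries against 3784 and 1340 in the MCAO/R + WT libraries. In endothelial cells the interaction was -1.83 ± 0.43 for *Mt1* (adjusted p = 0.0385) and -2.10 ± 0.53 for *Mt2* (adjusted p = 0.0545). The endothelial *Mt1* call was lost when 1 library was left out in 8 of the 11 cases, namely any of the 3 sham + WT or 3 sham + *Lrg1*-/- libraries (-1.92 to -1.73), MCAO/R + WT replicate 1 (-1.35) and MCAO/R + *Lrg1*-/- replicate 5 (-1.64). It was also lost with types named from single-cell markers (-1.81, adjusted p = 0.0509), with thinning (-1.23, adjusted p = 0.0537) and with the replicate number as a block, as given below. In microglia the interaction was 0.08 for *Mt1* (95% interval -0.67 to 0.83), and in astrocytes it was -0.13 (-1.05 to 0.80). *Mt3* was called in 0 of 11 types by edgeR, with 2 at an unadjusted p below 0.05 and 0 by DESeq2.

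The third comparison sets *Lrg1*-/- against WT mice after MCAO/R. *Mt1* was called lower in 5 of 12 cell types and *Mt2* in 2, against 0.0164% to 15.2% of all genes called lower in a type (median 6.235%). *Mt3* was called lower in 1 type and higher in 6. The share of all genes called lower was 12.7% in endothelial cells, 3.47% in choroid plexus capillary endothelial cells, 1.82% in astrocytes, 15.2% in oligodendrocytes and 2.91% in ciliated ependymal cells. In endothelial cells *Mt1* stood at 545, 1261 and 576 in the MCAO/R + *Lrg1*-/- group and at 2859 and 1612 in the MCAO/R + WT group (-1.49 ± 0.31, adjusted p = 0.0042). *Mt2* stood at 191, 531 and 190 and at 1109 and 559 (-1.44 ± 0.38, adjusted p = 0.0147). No library overlapped, but without MCAO/R + WT replicate 1 the differences were -1.02 (adjusted p = 0.0561) and -0.87 (adjusted p = 0.179). Within endothelial cluster 5, *Mt1* was at 745, 1348 and 658 against 4592 and 2862. That cluster held 115 of 289, 2010 of 2672 and 330 of 466 of the *Lrg1*-/- cells against 1117 of 2217 and 959 of 2226 of the WT cells. Cluster 16 held 73, 462 and 66 against 1018 and 1125 cells, and levels within it are not given here. The part of clusters in the endothelial difference was not tested. Choroid plexus capillary endothelial cells were lower for *Mt1* (-1.64 ± 0.37, adjusted p = 0.0189) and *Mt2* (-2.24 ± 0.39, adjusted p = 0.00611), and without MCAO/R + WT replicate 1 the differences were -0.71 (adjusted p = 0.274) and -1.19 (adjusted p = 0.0786). The *Mt1* call there was also lost without MCAO/R + *Lrg1*-/- replicate 2 (-1.68, adjusted p = 0.0669). With thinning both calls were lost (-0.98, adjusted p = 0.126, and -1.38, adjusted p = 0.0614), and with types named from single-cell markers these cells could not be fitted.

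Glia differed by type. In astrocytes *Mt1* was at 2464, 3043 and 2064 against 11916 and 5592 (-1.79 ± 0.35, adjusted p = 0.0199). Without MCAO/R + WT replicate 1 it was -1.16 (adjusted p = 0.0929), and without MCAO/R + *Lrg1*-/- replicate 1 or 5 it was -1.82 (adjusted p = 0.0505) or -1.71 (adjusted p = 0.0711). With single-cell markers it was -1.36 (adjusted p = 0.0937). Cluster 34 held 84, 124 and 183 of the *Lrg1*-/- astrocytes against 131 and 190 of the WT astrocytes. Cluster 36 held 15, 18 and 12 against 92 and 458. Median depth was 3306, 4689 and 2906 against 11318 and 9090.5 UMIs. Single cells held a sizeable share of the *Mt1* UMIs of the *Lrg1*-/- astrocytes, as given below. The part of clusters, depth and single cells in the astrocyte *Mt1* difference was not tested. Oligodendrocytes were at 917, 1871 and 1293 against 5367 and 1921 (-1.42 ± 0.40, adjusted p = 0.0169), and without MCAO/R + WT replicate 1 the difference was -0.50 (adjusted p = 0.368). The genotypes filled different clusters. Cluster 7 held 86 of 252, 797 of 1203 and 2229 of 3388 oligodendrocytes of the MCAO/R + *Lrg1*-/- libraries against 110 of 845 and 206 of 2334 of the MCAO/R + WT libraries, and most of the latter were in cluster 14 (476 and 1485 cells). Within cluster 14 *Mt1* was at 695, 1150 and 1010 against 3369 and 1710, and within cluster 7 it was at 732, 2145 and 1396 against 20808 and 5891. The median mitochondrial share of these oligodendrocytes was 7.69%, 9.55% and 7.76% against 3.56% and 3.95%, and their median depth was 6529, 3671 and 3501 against 15734 and 13514 UMIs. The part of clusters, cell quality and depth in the difference was not tested. Ciliated ependymal cells were at 3371, 4462 and 4258 against 9902 and 6604 (-1.03 ± 0.28, adjusted p = 0.0412), and this call was lost without either MCAO/R + WT library (-0.72 and -1.30), without MCAO/R + *Lrg1*-/- replicate 1 (-0.92) or 5 (-1.07), without any 1 sham + WT library (-1.03), with doublets kept (-0.97) or with thinning (-1.24). The genotypes filled different clusters here too. Cluster 22, with a median of 2797 UMIs per cell, held 38, 195 and 1461 of the *Lrg1*-/- cells and 25 and 19 of the WT cells, and cluster 40, with a median of 14365.5, held 18, 154 and 147 against 83 and 92. Within cluster 40 *Mt1* was at 2195, 4772 and 4425 against 10811 and 7428, and the groups did not overlap. Within cluster 22 it was at 3589, 3820 and 3615 against 8758 and 3578, and they overlapped. The part of clusters and depth in the difference was not tested. Microglia overlapped, with an *Mt1* of 485, 989 and 672 against 814 and 457 (0.17 ± 0.28, 95% interval -0.38 to 0.73, adjusted p = 0.698) and an *Mt2* of 74.2, 150 and 77.6 against 157 and 40.3 (0.03 ± 0.42, -0.79 to 0.85, adjusted p = 0.97). The microglia of these libraries filled different clusters, with 76 of 255, 1774 of 3093 and 1436 of 4689 in cluster 4 against 1500 of 3847 and 173 of 4113. Within cluster 4 *Mt1* was at 702, 1091 and 855 against 1092 and 674, and the genotypes overlapped there too. Without MCAO/R + WT replicate 1 the *Mt2* difference in microglia was 1.32 (adjusted p = 0.0111), and without MCAO/R + WT replicate 2 it was -0.69 (adjusted p = 0.135). MCAO/R + WT replicate 1 was the highest WT library for *Mt1* and *Mt2* in 12 of the 13 cell types in which both MCAO/R + WT libraries were measured for both genes.

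**Figure D3:**
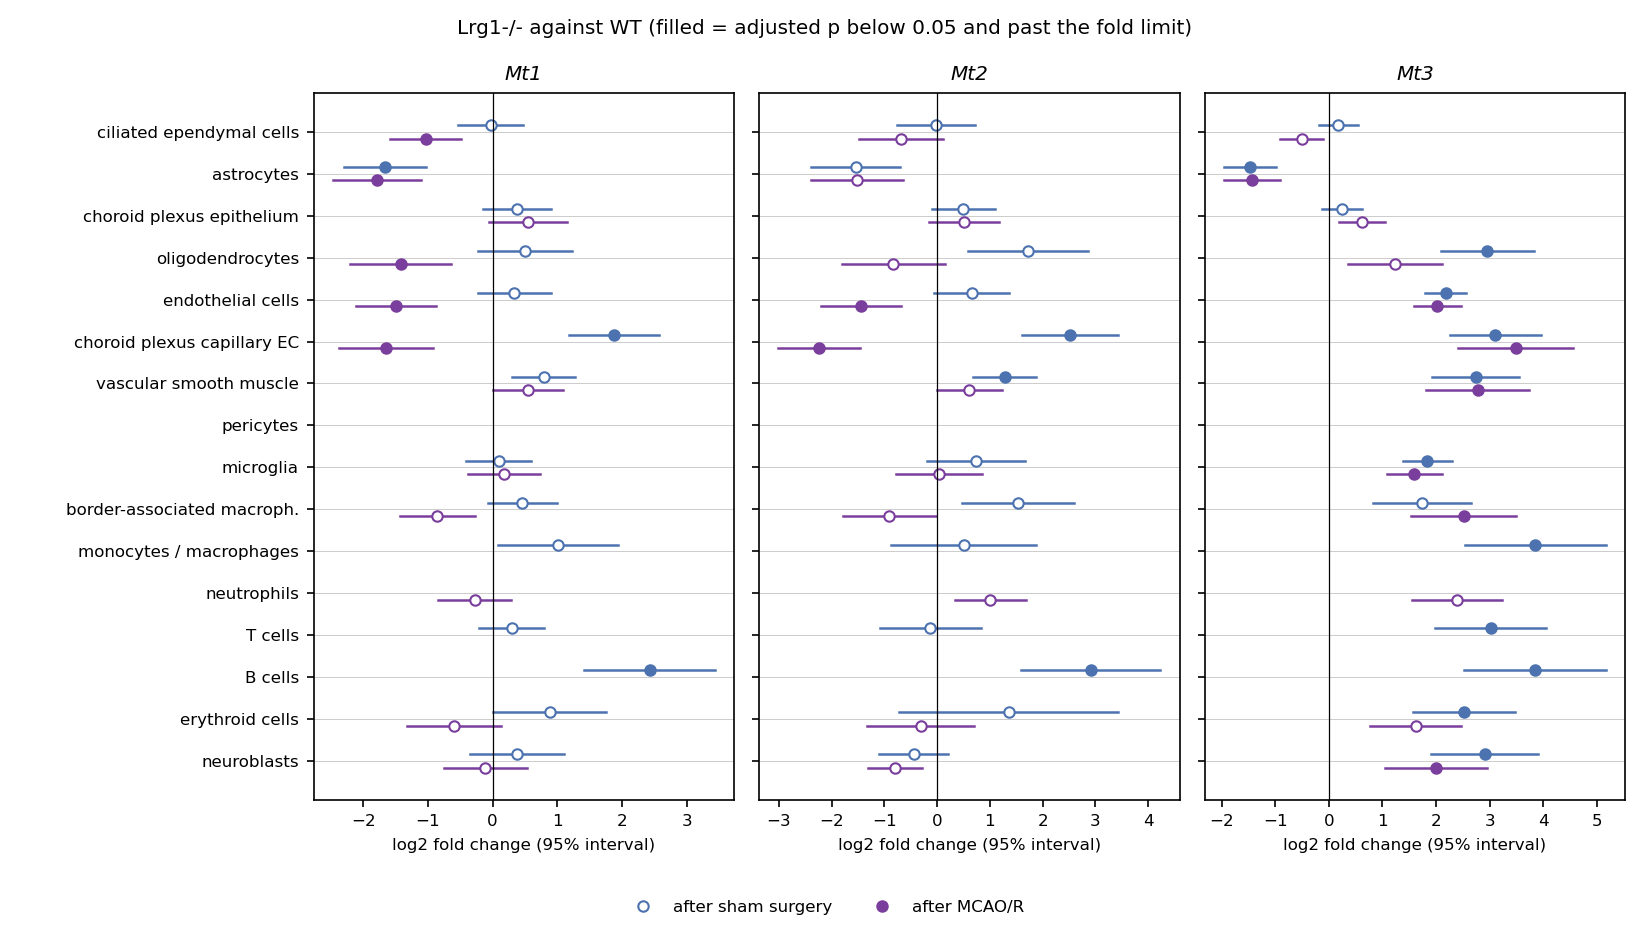
Log2 fold change of *Mt1*, *Mt2* and *Mt3* between *Lrg1*-/- and WT mice (x, with its 95% interval) in each cell type (y), after sham surgery in blue and after MCAO/R in purple, with filled points for called genes. *Mt3* lay below 0 in astrocytes and above 0 in most other cell types under both surgeries, with values from -1.47 to 3.85 after sham surgery and from -1.43 to 3.48 after MCAO/R.

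The fourth comparison sets *Lrg1*-/- against WT mice after sham surgery. Astrocytes were lower for *Mt1*, with 680, 581 and 910 CPM in the sham + *Lrg1*-/- libraries against 1845, 2476 and 2577 in the sham + WT libraries (-1.67 ± 0.32, adjusted p = 0.0144). They were lower for *Mt3*, with 596, 320 and 444 against 1171, 1289 and 1322 (-1.47 ± 0.25, adjusted p = 0.00697), and *Mt2* was at 146, 155 and 98.7 against 360, 415 and 396 (-1.54 ± 0.43, adjusted p = 0.0613). No library overlapped. In astrocytes 2.26% of all genes were called lower. The *Mt1* call was lost without sham + *Lrg1*-/- replicate 1 (-1.62, adjusted p = 0.0569), sham + WT replicate 2 (-1.61, adjusted p = 0.0655) or replicate 3 (-1.57, adjusted p = 0.0681). With types named from single-cell markers both astrocyte calls were lost (-1.63 for *Mt1* and -1.29 for *Mt3*, adjusted p = 0.052 for each). With the replicate block the *Mt1* call was lost. After MCAO/R *Mt3* in astrocytes was again lower, with 625, 543 and 490 against 1663 and 1322 (-1.43 ± 0.27, adjusted p = 0.0173), a call that was lost without MCAO/R + *Lrg1*-/- replicate 5 (-1.39), MCAO/R + WT replicate 1 (-1.27) or MCAO/R + WT replicate 2 (-1.59), or with single-cell markers (-1.05, adjusted p = 0.11). In the same astrocytes 5 of the 6 summed astrocyte transcripts were called lower under each surgery, with a median log2 difference of -1.42 after sham surgery and -1.39 after MCAO/R. Their part in the *Mt1* and *Mt3* differences was not tested. Within astrocyte cluster 36, *Mt3* was at 449, 251 and 488 in the sham + *Lrg1*-/- libraries against 1328, 1244 and 1404, and *Mt1* was at 765, 467 and 1114 against 2033, 2344 and 2694, from 16 to 34 cells against 207 to 317. Most astrocytes of the sham + *Lrg1*-/- libraries were in cluster 34 (73 of 107, 41 of 70 and 53 of 69), as were 481 of 714 in sham + WT replicate 1, while sham + WT replicates 2 and 3 had 317 of 454 and 207 of 326 in cluster 36. Within cluster 34 *Mt3* was at 631, 357 and 374 against 886, 1254 and 1157. The median depth was 2704.5 UMIs per cell in cluster 34 and 9437 in cluster 36.

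Outside astrocytes, *Mt1* of the sham groups was close in microglia (133 to 185 against 134 to 182, 0.10 ± 0.26) and in ciliated ependymal cells (1917, 3824 and 3338 against 3056 to 3139, -0.03 ± 0.25). *Mt1* was called higher in B cells, with 230 and 766 against 43.1 to 120.0 (2.43 ± 0.51, adjusted p = 0.0171), and in choroid plexus capillary endothelial cells (1.88 ± 0.36, adjusted p = 0.00249). *Mt2* was called higher in the same types and in vascular smooth muscle cells (1.28 ± 0.30, adjusted p = 0.0176). In the same B cells *Mt3* was at 210 and 349 against 8.6 to 34.3. In the choroid plexus capillary cells *Mt3* was at 58.6 to 117 against 5.9 to 15.4. The part of RNA from other cells in these calls was not tested. The B cell calls were lost without sham + *Lrg1*-/- replicate 5 (1.32 for *Mt1* and 1.53 for *Mt2*), sham + WT replicate 2 (2.04 and 2.48) or sham + WT replicate 3 (2.61 and 2.66), and the smooth muscle call without sham + *Lrg1*-/- replicate 2 (1.18) or 5 (1.18) or sham + WT replicate 2 (1.29) or 3 (0.99). With thinning the *Mt2* calls in choroid plexus capillary cells (1.80, adjusted p = 0.129) and smooth muscle cells (0.95, adjusted p = 0.164) were lost and *Mt2* in B cells had no value, and with single-cell markers neither B cells nor choroid plexus capillary cells could be fitted. The replicate block ended the *Mt1* and *Mt2* calls in B cells and the *Mt2* call in smooth muscle cells. For the 14 types tested, 0.877% to 10.5% of all genes were called higher (median 4.235%), with 10.2% in B cells, 3.72% in smooth muscle cells and 10.5% in choroid plexus capillary cells.

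*Mt3* was called higher in the sham + *Lrg1*-/- than in the sham + WT group in 10 of the 14 cell types. These were B cells, T cells, choroid plexus capillary endothelial cells, endothelial cells, erythroid cells, microglia, monocytes and monocyte-derived macrophages, neuroblasts, oligodendrocytes and vascular smooth muscle cells, with differences of 1.84 to 3.85. Beyond the shares just given, 4.75% of all genes were called higher in T cells, 6.34% in endothelial cells, 0.877% in erythroid cells, 10.5% in microglia, 1.01% in monocytes and monocyte-derived macrophages, 3.37% in neuroblasts, 8.89% in oligodendrocytes and 19.1% in all retained cells. In endothelial cells it was at 52.3, 44.5 and 33.1 against 9.7, 9.4 and 9.9 (2.18 ± 0.20, adjusted p = 3.94e-05), in microglia at 52.5, 36.3 and 22.5 against 11.3, 10.6 and 9.99 (1.84 ± 0.23, adjusted p = 0.00017), and in oligodendrocytes at 87.4, 105 and 111 against 14.4, 13.97 and 10.1 (2.95 ± 0.44, adjusted p = 0.00131). After MCAO/R it was higher in endothelial cells, at 44.9, 31.8 and 33.8 against 7.0 and 11.0 (2.03 ± 0.23, adjusted p = 9.23e-05), and in microglia, at 42.3, 33.8 and 49.0 against 13.8 in both WT libraries (1.60 ± 0.26, adjusted p = 0.0011). After MCAO/R it was also higher in border-associated macrophages (2.51 ± 0.50), choroid plexus capillary endothelial cells (3.48 ± 0.55), vascular smooth muscle cells (2.78 ± 0.49) and neuroblasts (1.996 ± 0.492). There, 13.2% of all genes were called higher in endothelial cells, 10.6% in microglia, 9.12% in border-associated macrophages, 7.57% in smooth muscle cells, 4.06% in choroid plexus capillary endothelial cells, 9.09% in neuroblasts and 15.4% in all retained cells. The calls in neuroblasts were lost without sham + *Lrg1*-/- replicate 1 after sham surgery (3.03) and without either MCAO/R + WT library after MCAO/R (2.14 and 1.87), and after sham surgery the calls in erythroid cells, monocytes and B cells were lost without sham + *Lrg1*-/- replicate 1 (2.40) or sham + WT replicate 2 (1.86), sham + WT replicate 3 (3.61), and sham + *Lrg1*-/- replicate 5 (3.44) or sham + WT replicate 2 (3.40). With thinning the sham calls in erythroid cells (2.03, adjusted p = 0.114) and neuroblasts (2.19, adjusted p = 0.219) were lost, and T cells, monocytes and choroid plexus capillary cells had no value for *Mt3*. With single-cell markers the sham call in T cells was lost (2.07, adjusted p = 0.171), and B cells, choroid plexus capillary cells, erythroid cells, monocytes and neuroblasts had none. With plain library totals the sham call in erythroid cells was lost (1.43, adjusted p = 0.395). The replicate block ended the sham calls in B cells and erythroid cells. The endothelial and microglial calls held under every alternative run and without any 1 library. Astrocytes, 1 of the 3 types with high *Mt3*, were lower, as given above. In the other two, ciliated ependymal and choroid plexus epithelial cells, it was not called in either genotype comparison, with 0.18 ± 0.19 and 0.24 ± 0.19 after sham surgery. After MCAO/R, ciliated ependymal cells were at 2635, 2534 and 2548 against 3724 and 3597 (-0.51 ± 0.21, adjusted p = 0.136), and the choroid plexus epithelium was at 1293, 937 and 1086 against 804 and 637 (0.61 ± 0.22, adjusted p = 0.0553). The libraries of the genotypes did not overlap in either type. The choroid plexus transcripts listed above moved the same way. All 6 were called higher in endothelial cells and in microglia of the *Lrg1*-/- mice under both surgeries, with medians of 3.68 and 2.89 after sham surgery and 3.79 and 3.84 after MCAO/R. Over 13 cell types other than the 3 with high *Mt3*, *Mt3* was at 0 to 54.1 in the sham + WT group and 3.8 to 85.3 in the MCAO/R + WT group, where the summed choroid plexus transcripts were at 212 to 1514 and 84.0 to 780. In the sham + *Lrg1*-/- and MCAO/R + *Lrg1*-/- groups *Mt3* was at 22.5 to 349 and 30.5 to 254, and the transcripts were at 2759 to 44807 and 2322 to 20465. Across cell types and libraries, which share library and depth, the log values of *Mt3* and of these transcripts had a Pearson r of 0.80 in the sham + *Lrg1*-/- group (n = 32 points) and 0.80 in the MCAO/R + *Lrg1*-/- group (n = 36), and of 0.27 in the sham + WT group (n = 35) and 0.37 in the MCAO/R + WT group (n = 22). *Mt3* as a percent of these transcripts had a median of 2.93 over the sham + WT points. The median was 8.66 in MCAO/R + WT, 0.91 in sham + *Lrg1*-/- and 1.42 in MCAO/R + *Lrg1*-/-. In choroid plexus epithelial cells this percent was 0.35 to 0.56, 0.26 to 0.34, 0.57 to 0.73 and 0.37 to 0.79, in that order. Each median lay above the range of the epithelium. The percent sets *Mt3* scaled by TMM against a sum scaled to plain library totals. It takes no account of RNA from ciliated ependymal cells or astrocytes, which were also high in *Mt3*. The part of RNA from choroid plexus or other cells in the *Mt3* differences was not tested.

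**Figure D4:**
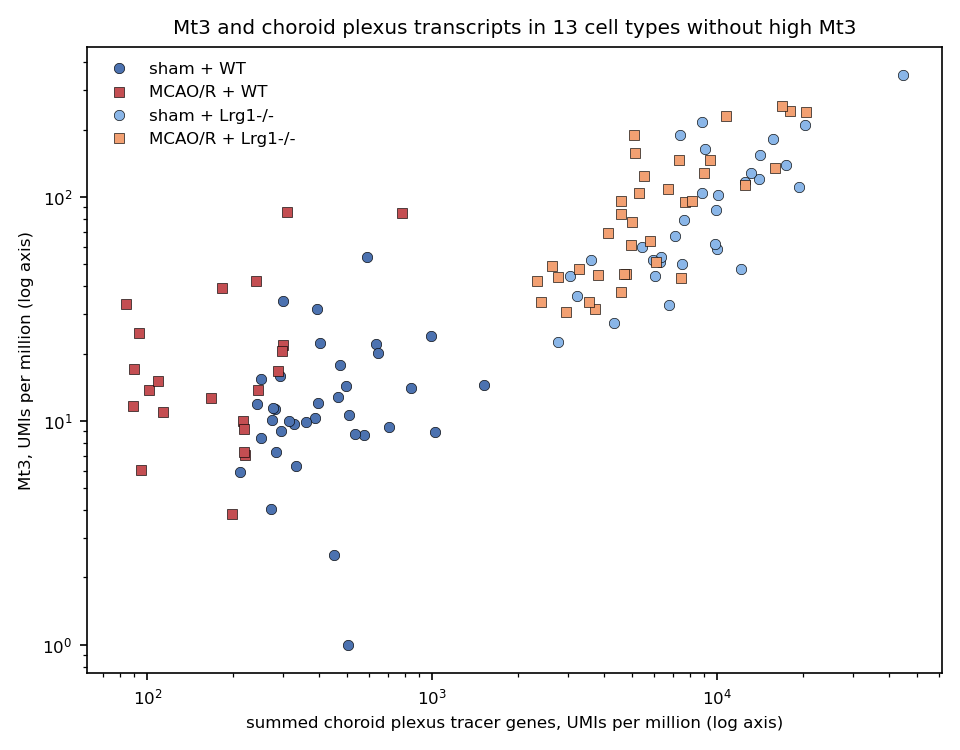
*Mt3* (y) against the summed choroid plexus transcripts (x), both in CPM on log axes, with 1 point per cell type and library for 13 cell types other than ciliated ependymal cells, astrocytes and choroid plexus epithelial cells, coloured by group and drawn at 1 where no UMI was found. *Mt3* was scaled by TMM and the summed transcripts to plain library totals. The points of WT libraries reached at most 1514 on the x axis, and those of *Lrg1*-/- libraries began at 2322.

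Shares of cells with at least 1 UMI were compared after each cell was thinned to 1000 UMIs, since depth differed between libraries. In oligodendrocytes of WT mice the share with *Mt1* was 25.9%, 26.6% and 23.0% after sham surgery and 78.3% and 73.8% after MCAO/R. In microglia of WT mice it was 14.5%, 11.6% and 11.2% and then 42.3% and 34.0%, while the share with *Mt2* was 0.66%, 0.555% and 0.541% and then 10.6% and 3.81%. No cell type is known to lack *Mt1* or *Mt2*. T cells, low in both, had a thinned *Mt1* share of 7.22%, 9.37% and 7.55% after sham surgery and 17.9% and 21.6% after MCAO/R in WT mice, the last 2 from only 21 and 14 cells. As found, without thinning, *Mt1* was seen in 62.0%, 59.7% and 59.8% of sham + WT microglia and in 96.2% and 92.7% of MCAO/R + WT microglia, at a median of 8917.5 to 12186 UMIs per cell. In astrocytes the thinned share with *Mt3* was 49.1%, 56.5% and 58.2% in the sham + WT group and 29.9%, 29.6% and 26.4% in the sham + *Lrg1*-/- group, and in microglia it was 1.28%, 1.008% and 1.0002% against 6.79%, 4.75% and 3.08%. T cells, which are not known to carry *Mt3*, had a thinned share of 1.65%, 2.54% and 1.19% in the sham + WT group and 8.40%, 7.66% and 4.96% in the sham + *Lrg1*-/- group. The median depth of T cells was 7546 to 10590.5 UMIs in these libraries and that of microglia 4288 to 10282. In each of these libraries the *Mt3* share of microglia was below that of T cells. The T cells numbered 53, 61 and 38 in the sham + WT libraries and 176, 36 and 52 in the sham + *Lrg1*-/- libraries. The part of RNA from other cells in these shares was not tested, and no change in expression is read from them. With 168 comparisons of thinned shares and 2 or 3 libraries per group, the exact two-sided permutation test cannot give a p below 0.1, and its smallest adjusted p was 0.198, so none passed. Most UMIs were not from a few cells in microglia, where the cell with most *Mt1* held 0.317% to 5.33% of its library's *Mt1*. In astrocytes of the MCAO/R + *Lrg1*-/- group a single cell held 28.8%, 16.1% and 16.7%.

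**Figure D5:**
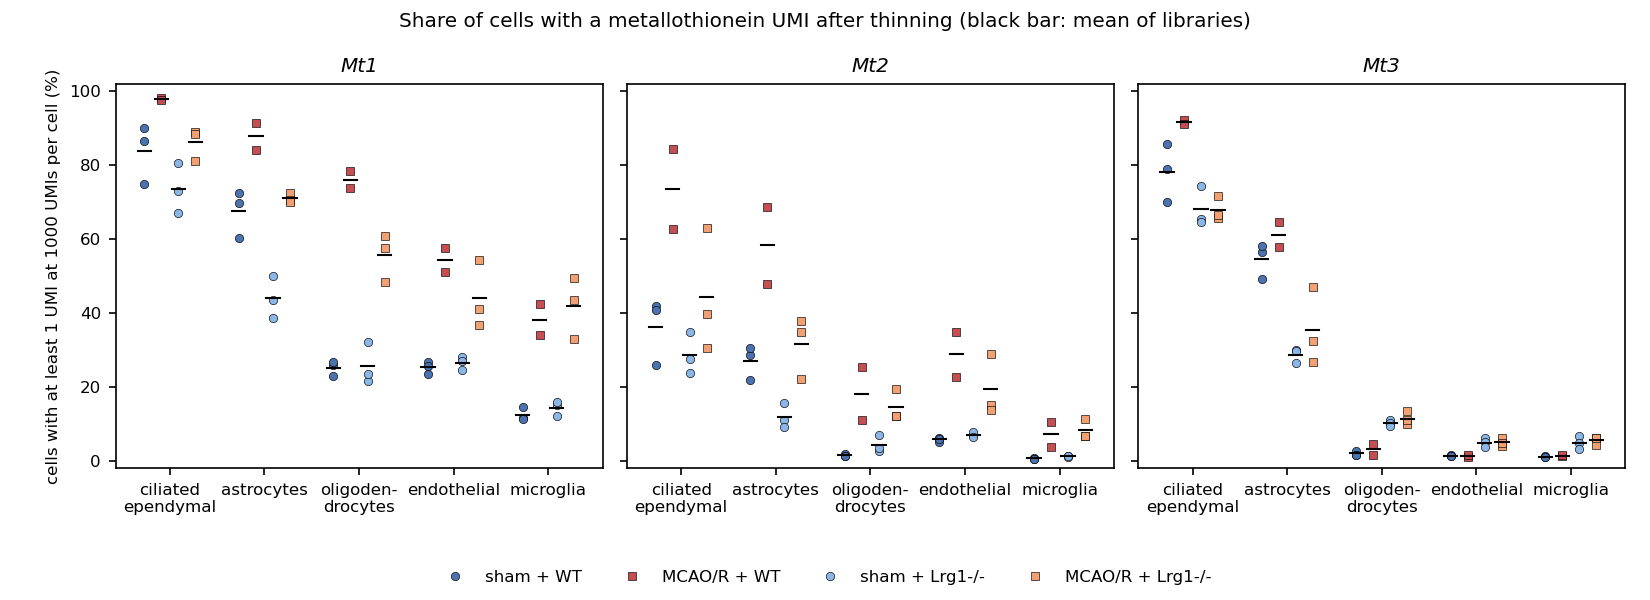
Percent of cells with at least 1 UMI of *Mt1*, *Mt2* or *Mt3* after thinning to 1000 UMIs per cell (y) in 5 cell types (x), with 1 point per library and the group mean as a black bar. The *Mt1* and *Mt2* points of the MCAO/R groups lay above those of the sham groups of the same genotype in oligodendrocytes, endothelial cells and microglia, and the *Mt3* shares of these 3 types reached at most 13.3%.

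The cell types that carried the UMIs differed between groups. In the sham + WT libraries astrocytes held 16.9% to 25.5% of all *Mt1* UMIs, ciliated ependymal cells 13.8% to 20.8% and endothelial cells 15.7% to 24.5%. In the MCAO/R + WT libraries oligodendrocytes held 26.9% and 37.0% of *Mt1*, and endothelial cells held 45.5% and 40.6% of *Mt2*. In the sham + *Lrg1*-/- libraries astrocytes held 1.2% to 2.0% of *Mt1*, and choroid plexus epithelial cells held 43.1% to 82.6% of *Mt3*, against 14.6% to 17.9% in the sham + WT libraries. Such shares depend both on the level in a type and on how many of its cells were captured. Choroid plexus epithelial cells numbered 466 to 3278 per sham + *Lrg1*-/- library against 140 to 206 per sham + WT library. Oligodendrocytes numbered 845 and 2334 in the MCAO/R + WT libraries against 1472, 1208 and 739 in the sham + WT libraries. Values of all retained cells thus mix level and makeup.

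Genes that act on metals or share known inducers with metallothioneins were read in astrocytes, endothelial cells and microglia. Their lists were chosen with earlier results of these data known, so the counts describe the lists and are not an independent test. For MCAO/R + WT against sham + WT, 12 glucocorticoid-responsive genes were tested in each type. In astrocytes 7 rose and in microglia 7, and in endothelial cells 9 rose and 1 fell, with medians of 1.33, 1.31 and 0.95 against -0.03, 0.05 and 0.02 over all genes. In astrocytes, endothelial cells and microglia 1.22%, 10.2% and 11.7% of all genes were called higher and 0.737%, 11.1% and 9.84% lower, and every count of this comparison that follows is read against these shares. *Fkbp5*, a co-chaperone of the glucocorticoid receptor, rose in astrocytes (6.26 ± 0.49, adjusted p = 5.9e-05) and endothelial cells (6.14 ± 0.23, adjusted p = 1.4e-08), and *Zbtb16*, a zinc finger transcription factor, rose in microglia (6.21 ± 0.39, adjusted p = 1e-06). Nrf2 targets, the antioxidant genes, rose in 9 of 12 in endothelial cells and 10 of 12 in microglia, and in 2 of 11 in astrocytes. Among them *Slc7a11*, the cystine importer, rose in microglia (4.30 ± 0.42, adjusted p = 1.8e-05) and *Hmox1*, haem oxygenase, in astrocytes (3.97 ± 0.89, adjusted p = 0.042). Of the genes of Stat3 signalling, 3 of 10 rose in astrocytes, among them *Osmr*, the oncostatin M receptor (3.54 ± 0.66, adjusted p = 0.02), and *Cebpd*, a transcription factor of the acute phase (3.03 ± 0.34, adjusted p = 0.001). In endothelial cells 4 of 10 rose and 1 fell, and in microglia 2 of 10 rose.

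Of the zinc transporters and *Mtf1*, 1 of 19 rose and 1 fell in astrocytes, 4 of 20 rose and 2 fell in endothelial cells, and 6 of 21 rose and 1 fell in microglia, with medians of -0.01, 0.18 and 0.36. The 2 of 20 that fell in endothelial cells are near the share of all genes called lower there, 11.1%. *Slc39a14*, which imports zinc, iron and manganese, rose in all 3 types (2.85 ± 0.44, 1.82 ± 0.30 and 2.28 ± 0.43, adjusted p = 0.0077, 0.00081 and 0.0021), and *Slc30a10*, a manganese exporter, fell by 1.97 in astrocytes (adjusted p = 0.013). *Slc30a1*, a zinc exporter known as an Mtf1 target, and *Mtf1* are given after their values were seen. *Slc30a1* was not called in any of the 3 types. Its fold changes were -0.20 ± 0.33 in astrocytes, 0.20 ± 0.15 in endothelial cells and 0.41 ± 0.25 in microglia. *Mtf1* was at 17.6 to 24.4 CPM in the microglia of WT mice and was not called either (0.36 ± 0.16, adjusted p = 0.127). Of copper genes, 2 of 9 rose in endothelial cells and 1 of 10 in microglia, the last near the 11.7% of all genes called higher there. The microglial gene was *Slc31a2*, a copper transporter (0.999 ± 0.170, adjusted p = 0.0011). Hypoxia-inducible genes rose in 4 of 11 and fell in 1 in endothelial cells, with *Slc2a1*, the glucose transporter of the blood-brain barrier, at 1.61 ± 0.14 (adjusted p = 5.8e-06).

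Between genotypes after MCAO/R, glucocorticoid-responsive genes were lower in 3 of 12 in astrocytes, 8 of 12 in endothelial cells and 10 of 12 in microglia, with medians of -0.55, -0.74 and -1.34 against 0.01, 0.01 and 0.09 over all genes, while 1.82%, 12.7% and 10.4% of all genes were called lower and 1.82%, 13.2% and 10.6% higher. *Zbtb16* (-3.83 ± 0.35, adjusted p = 2.4e-05) and *Fkbp5* (-1.89 ± 0.15, adjusted p = 1.1e-05) were lower in microglia. Of the genes of Stat3 signalling, 5 of 10 were lower and 1 was higher in microglia. Of the zinc genes, 4 of 21 were lower and 2 higher in microglia, among them *Slc39a12* (-1.92 ± 0.31, adjusted p = 0.0011). Immediate early genes, which dissociation of tissue can raise, also differed in microglia, where their sum was at 10987 to 13940 in the MCAO/R + *Lrg1*-/- libraries and at 26776 and 30070 in the MCAO/R + WT libraries. Between the genotypes after sham surgery, Nrf2 targets were higher in 6 of 12 and lower in 1 in microglia, where 10.5% of all genes were called higher and 12.4% lower, with *Nqo1*, a quinone reductase, at 1.75 ± 0.42 (adjusted p = 0.0091). The other lists of this comparison are not given here. The counts between genotypes after MCAO/R thus do not show whether those differences were already there after sham surgery.

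Likeness was measured by Pearson's r of mean log2 levels over 62 means of a cell type in a group, among 12431 genes, as a description with no test, and these means share libraries. *Mt1* and *Mt2* were each the gene most like the other (r = 0.91). *Mt3* had an r of 0.50 with *Mt1* and 0.49 with *Mt2*. After *Mt2*, the genes most like *Mt1* were *Fam107a* (0.74), *Gfap* (0.73), *Endog* (0.70) and *Pxmp2* (0.70). The genes most like *Mt2* after *Mt1* were *Fam107a* (0.79), *Gfap* (0.74), *Serpina3n* (0.73) and *Endog* (0.69). The genes most like *Mt3* were *Clu* (0.91), *Kcnk1* (0.89), *Wwc1* (0.88), *Chchd10* (0.88) and *Tekt1* (0.88).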

How the data were processed

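Single-cell suspensions of brain from 11 mice were captured with the 10x Chromium 3′ kit, and the authors deposited a filtered matrix of raw UMI counts per gene and cell for each library, made with Cell Ranger (7.0.1 per the file headers, while the study's methods name another version). The submitters' processing notes also name STAR and mm10. The deposited counts were not normalized, while the study's own analysis normalized them with Seurat. Intronic reads and strand settings are not given in the sources used here.

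From these counts, cells with more than 500 genes, more than 1000 UMIs and less than 25% mitochondrial UMIs were kept, and the 6% of each library with the highest doublet score were removed. Cells were clustered from 2000 variable genes and 15 principal components with 3 neighbours per library and Leiden clustering at resolution 4 (igraph 0.11.9, scikit-learn 1.9.0), and 39 of 50 clusters were named from marker genes. UMIs were summed per mouse and cell type with at least 20 cells, and all 4 groups entered 1 fit per type with edgeR 4.0.16 (R 4.3.3), with TMM, filterByExpr, glmQLFit, glmQLFTest and Benjamini-Hochberg adjustment over all genes of the type. Every adjusted p of a fold change comes from this test unless DESeq2 is named. Contrasts needed 2 libraries per group, except in refits without 1 library, where a group could keep a single library and the spread then came from the other groups. Intervals of 95% use the normal quantile and the SE, which makes them narrower than the F distribution of the test would. DESeq2 1.42.0 was an alternative. On simulated astrocyte counts of 11184 genes, 198 of 200 changed genes were recovered, with 20 false calls. Shares were compared by exact two-sided permutation tests (scipy 1.17.1). Each library was taken as 1 mouse, and p-values measure the spread between these libraries.

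The members and gene lists were chosen with earlier results of these data known. The genes named are *Mt1*, *Mt2* and *Mt3* in every type and contrast, from each list at most the 4 called genes with the largest change per contrast, the 5 genes most like each metallothionein, and *Lrg1*. Alternatives covered normalization, filters, depth, doublets, cell naming, the replicate block and each library left out. Promoters are from RefSeq (GRCm38.p6), genes from GENCODE M21.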

Additional observations from a re-analysis of the deposited data

Results flagged for a closer look

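The response to MCAO/R differed between genotypes, by the test of the interaction in edgeR, in 2 cell types, and the calls did not hold under every alternative. In choroid plexus capillary endothelial cells the log2 difference in *Lrg1*-/- mice minus that in WT mice was -3.52 for *Mt1* (adjusted p = 0.00746) and -4.76 for *Mt2* (adjusted p = 0.00448). The *Mt1* call was lost with at least 50 cells per library (-3.44) and the *Mt2* call with thinning (-3.18). The cluster of these cells also held pericyte markers, as given above. Sham levels differed in these cells too, with *Mt1* at 537 to 700 in the sham + *Lrg1*-/- libraries against 107 to 237 in the sham + WT libraries. In endothelial cells it was -1.83 for *Mt1* (adjusted p = 0.0385), a call that was lost in 8 of 11 fits without 1 library, with thinning (-1.23, adjusted p = 0.0537) and with single-cell markers (-1.81, adjusted p = 0.0509). The replicate block, given below, also ended it.

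*Mt4*, the metallothionein of stratified epithelia, lies next to *Mt3*. It was not among the metallothioneins compared above, though it was in the list of copper genes. It had 0 UMIs in the cells kept from the 6 sham libraries, of their 423131143 UMIs, where a floor of 3 counts allows up to 0.00709 CPM. MCAO/R + WT replicate 1 held 462 UMIs of it and replicate 2 held 15. The MCAO/R + *Lrg1*-/- libraries held 4, 55 and 118. Of the 462 UMIs, 161 were in oligodendrocytes, 28 in microglia, 23 in neuroblasts and at most 6 in any other named type with at least 20 cells, and the rest were in cells outside these types. These limits cover counting error only.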

How the results depend on the processing

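Over the 3 genes and all types, 15 calls were made for MCAO/R + *Lrg1*-/- minus MCAO/R + WT, 15 for MCAO/R + *Lrg1*-/- minus sham + *Lrg1*-/-, 20 for MCAO/R + WT minus sham + WT, 3 for the interaction and 19 for sham + *Lrg1*-/- minus sham + WT. With no filter on low counts the counts were 27 and 24 for the comparisons named first and 10 for the interaction. With cell types named from the markers of each single cell the interaction had 0 calls, choroid plexus capillary endothelial cells not being fitted there, and sham + *Lrg1*-/- minus sham + WT had 10. DESeq2 gave 5 calls for the interaction. Thinning to 1000 UMIs per cell left 12 calls for sham + *Lrg1*-/- minus sham + WT. Leaving out 1 library gave 8 to 18, 5 to 19, 14 to 22, 2 to 7 and 12 to 23 calls, in the order above, with 8 without MCAO/R + WT replicate 1, 5 and 6 without sham + *Lrg1*-/- replicate 1 and 2, 7 without MCAO/R + WT replicate 2 and 12 without sham + WT replicate 2.

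Deviations of same-numbered libraries from their group means correlated at -0.59 to 0.43 over 8270 genes. The groups are small, which constrains these correlations, and no pairs of unlike number were set beside them. The check thus cannot tell whether the numbers pair the libraries. With the replicate block the counts were 14, 14, 18, 2 and 12. Calls of the last comparison that it ended were *Mt1* in astrocytes (-1.62), *Mt1*, *Mt2* and *Mt3* in B cells (1.90, 2.25 and 2.97), *Mt2* in smooth muscle cells (0.94), *Mt3* in erythroid cells (4.11) and *Mt1* in all retained cells (0.64), and the endothelial interaction of *Mt1* was -1.88 (adjusted p = 0.168). The cause of these changes was not tested.

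Of 759 refits of 72 called values other than leaving out a library, 710 kept the call, 49 lost it and 0 changed direction. Values that could not be fitted under an alternative are not among these refits. Of 792 refits without 1 library, 680 kept it, 112 lost it and 0 changed direction. Many of the latter left out a library of a group outside the comparison, which bears on the shared spread more than on the difference. Values that changed direction were not called in the reported fit. For MCAO/R + *Lrg1*-/- minus MCAO/R + WT in microglia, *Mt1* ran from -0.23 to 0.64 without 1 library and *Mt2* from -0.69 to 1.32, and *Mt2* was -0.0136 with DESeq2 and -0.0074 with its size factors. For MCAO/R + *Lrg1*-/- minus sham + *Lrg1*-/- in microglia, *Mt3* was -0.99 with single-cell markers, -0.0407 with thinning and -0.10 to 0.46 without 1 library. For MCAO/R + WT minus sham + WT, *Mt3* was 0.36 with thinning and -0.46 to 0.19 without 1 library in endothelial cells, and -0.49 with single-cell markers in microglia. For sham + *Lrg1*-/- minus sham + WT in microglia, *Mt1* was -0.0187 with the block, -0.12 with thinning and -0.0125 to 0.26 without 1 library.

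Thinning turned the direction of 5 differences in the share of cells with a UMI, which were then -10.3 percentage points for *Mt1* in endothelial cells and 3.86 in microglia between the MCAO/R groups, 1.91 for *Mt1* in microglia between the sham groups, 6.72 for *Mt3* in astrocytes between the *Lrg1*-/- groups and -0.0542 for *Mt3* in endothelial cells between the WT groups.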
